A study of Mus musculus with 14 samples.

Results

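The KLF and FOXO quiescence factor genes are 10 genes, Klf2, Klf3, Klf4, Klf6, Klf10, Klf13, Foxo1, Foxo3, Foxp1 and Tsc22d3, that encode transcriptional regulators of resting lymphocytes. They were chosen by name with earlier results of these data known, as were the gene lists used below. Counts of called genes set beside shares of all tested genes are therefore descriptions of these genes only. Each symbol matched 1 of the 39179 Ensembl gene IDs in the count tables. All 10 passed the filter on low counts that left 12630 genes to be tested. RNA was sequenced from follicular B cells, the main mature B cell of the spleen, isolated from C57BL/6 mice and grown with 50 ng per ml of BAFF, a survival cytokine of mature B cells. The 14 libraries formed 7 groups of 2. These were wild type (wt) at 0h, 6h and 27h, crel-/- (cko) at 0h and 6h, and relb-/-crel-/- (dbko) at 0h and 6h. Both knockout genotypes lack c-Rel, a subunit of the transcription factor NF-kB encoded by Rel, and dbko lacks the subunit RelB (Relb) as well. A genotype that lacks RelB alone was not analysed here. The labels give no ages, do not say whether the deletions are limited to B cells, and do not state whether each library had its own animal, so the p-values speak for the spread of these libraries alone. No culture without BAFF was analysed here, so an effect of BAFF and an effect of being cultured cannot be told apart.

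Kruppel-like factors (KLF) bind GC-rich and CACCC-type DNA through a C-terminal set of zinc fingers, and several of them hold lymphocytes in a resting state. FOXO factors do the same through genes of cell cycle arrest, homing and apoptosis, and are kept out of the nucleus when PI3K and the kinase AKT are active, so their activity is set largely at the protein level. Foxp1 encodes a related forkhead factor needed in early B cells, and Tsc22d3 encodes GILZ, a leucine zipper protein induced by glucocorticoids and by FOXO factors.

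Gene counts summed to 10497802 to 11888765 per library. As a check of the labels, Rel measured 621 and 633 CPM (counts-per-million on library sizes scaled by the TMM method) in the wt libraries of 0h, against 40 to 111 CPM over the 8 knockout libraries, and Relb at 53 to 88.4 CPM in dbko against 115 and 117 CPM in wt at 0h. Both genes were also called lower in wt at 27h than at 0h, where they summed to 260 to 265 CPM at 27h and 737 to 749 CPM at 0h. Relb was called higher in cko than in wt at 0h. Of the 9 tested B cell markers none was at 0 in any library. The 2 dbko libraries of 0h stood apart from each other, with Klf4 at 274 CPM in replicate 1 and 563 CPM in replicate 2. Erythroid markers summed to 528 to 1074 CPM in dbko at 0h and 103 to 225 CPM in dbko at 6h, against 1.92 to 58.2 CPM in the other groups.

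The starts of the 4 genes that moved together, Klf2, Klf4, Klf6 and Tsc22d3, are shown here because the largest differences below are theirs. Each line gives the 250 bases before the RefSeq transcription start in GRCm38.p6, at chr8:72318812-72319061 on the plus strand for Klf2, chr4:55532476-55532725 on the minus strand for Klf4, chr13:5861239-5861488 on the plus strand for Klf6 and chrX:140600523-140600772 on the minus strand for the outermost of 3 listed starts of Tsc22d3. Capitals mark the GC box GGGCGG, the cAMP response element core TGACG and, in Klf2 alone, the MEF2 site, on either strand.
Klf2: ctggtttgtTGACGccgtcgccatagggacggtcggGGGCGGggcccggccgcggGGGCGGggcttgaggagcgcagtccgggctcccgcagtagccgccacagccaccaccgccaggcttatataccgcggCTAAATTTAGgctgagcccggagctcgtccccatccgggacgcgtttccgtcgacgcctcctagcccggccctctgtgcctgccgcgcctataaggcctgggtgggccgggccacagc
Klf4: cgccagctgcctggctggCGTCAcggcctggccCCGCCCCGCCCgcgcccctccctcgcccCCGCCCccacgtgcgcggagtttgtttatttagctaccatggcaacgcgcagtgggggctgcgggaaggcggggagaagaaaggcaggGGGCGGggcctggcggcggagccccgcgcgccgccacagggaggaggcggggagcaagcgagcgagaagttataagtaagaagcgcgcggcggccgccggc
Klf6: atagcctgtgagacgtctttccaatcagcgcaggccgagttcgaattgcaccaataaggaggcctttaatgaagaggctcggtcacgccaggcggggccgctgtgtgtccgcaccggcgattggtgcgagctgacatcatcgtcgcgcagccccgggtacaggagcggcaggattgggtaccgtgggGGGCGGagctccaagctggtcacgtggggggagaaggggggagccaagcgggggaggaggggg
Tsc22d3: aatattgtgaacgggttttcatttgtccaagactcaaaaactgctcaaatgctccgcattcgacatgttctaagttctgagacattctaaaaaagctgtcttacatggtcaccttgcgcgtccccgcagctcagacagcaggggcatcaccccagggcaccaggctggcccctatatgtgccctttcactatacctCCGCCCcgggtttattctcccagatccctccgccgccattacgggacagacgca
The GC box, a site for factors of the SP and KLF families, was in all 4 windows, and in 32.7% of the 32851 windows of the same length. The windows of Klf2, Klf4, Klf6 and Tsc22d3 were 71.2, 74.0, 64.8 and 52.4% G or C, against a median of 52.4% over all windows. The part of base content in the matches was not tested. Another listed start of Tsc22d3, not shown, held the TGACG core and the CACCC box and no GC box. The remaining listed start, also not shown, held a GC box. Which start of Tsc22d3 these cells use was not measured. The TGACG core was in the windows of Klf2 and Klf4 and in 17.8% of all windows. The MEF2 site was in 0.508% of all windows. The CACCC box (CACCC) was in the windows of Klf2 and Tsc22d3 and in 52.0% of all windows, and the CCAAT box (CCAAT) was in that of Klf6 and in 33.8%. The whole cAMP response element TGACGTCA, which holds the TGACG core (1.55% of all windows), the AP-1 site TGACTCA (4.46%), the FOXO site TGTTTAC (3.17%), the kappaB site (7.25%) and the CArG box (1.47%) had no match in these 4 windows. In GENCODE M21 (GRCm38) these genes, each with its Ensembl ID, span chr8:72319033-72321656 (Klf2, ENSMUSG00000055148), chr4:55527143-55532466 (Klf4, ENSMUSG00000003032), chr13:5861482-5870394 (Klf6, ENSMUSG00000000078) and chrX:140539528-140600659 (Tsc22d3, ENSMUSG00000031431). RefSeq windows were listed for 9 of the 10 genes, 13 windows in all, and 11 of the 13 held a GC box.

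The first question was how these genes changed in wt cells over 6h with BAFF. Of the 10 genes 7 fell and 0 rose at an adjusted p under 0.05 (edgeR), while 23.5% of all tested genes fell and 22.6% rose. The median log2 difference was -0.92 over the 10 genes and -0.00 over all tested genes. Klf2, Klf4, Klf6 and Tsc22d3 fell the most, Klf13, Klf3 and Foxo1 fell by less, and Klf10, Foxo3 and Foxp1 did not pass the test.

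Klf4, a factor that restrains the division of resting B cells, went from 1040 and 1026 CPM in the wt libraries of 0h down to 8.24 and 10.9 CPM at 6h, where the values rested on 90 and 128 counts. The 2 time points were far apart, with a log2 difference of -6.75 ± 0.40 (SE, adjusted p = 6.68e-07), a 108-fold lower level. Klf2, which controls lymphocyte traffic and quiescence, went from 829 and 869 CPM to 77.3 and 99.0 CPM, and its difference was -3.27 ± 0.19 (adjusted p = 1.97e-07). Klf6, an early-response family member, went from 2025 and 1994 CPM to 265 and 305 CPM, or -2.82 ± 0.16. Tsc22d3 went from 1340 and 1385 CPM to 167 and 194 CPM, or -2.92 ± 0.18. The calls on these 4 genes held under all alternatives tried. In the same comparison 9 of 11 monocyte and macrophage markers fell and 0 rose, with a median log2 difference of -2.36. Their summed level, which weighs abundant markers most, went from 1018 to 1035 CPM down to 570 to 588 CPM. Of 9 B cell markers 6 fell and 0 rose, with a median of -1.19, and their sum went from 18111 to 18513 CPM down to 11024 to 11098 CPM. The part of other cells in the result was not tested.

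**Figure D1:**
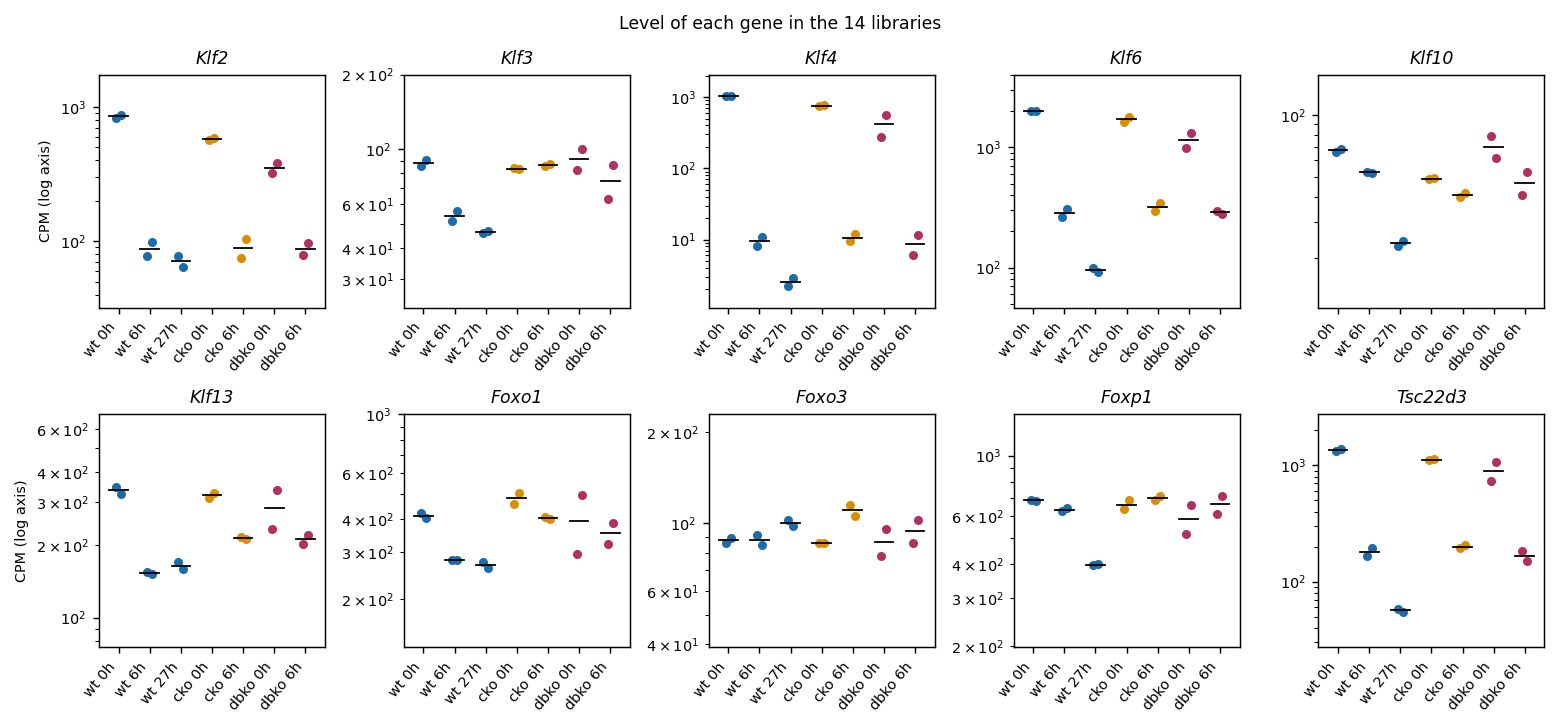
Level of each of the 10 genes (CPM, log axis, with a range of its own in each panel) in the 14 libraries; points are libraries and bars are group means. Klf2, Klf4, Klf6 and Tsc22d3 drop from 0h to 6h in all 3 genotypes, while Foxo3 stays between 78.3 and 115 CPM throughout.

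Klf13, a factor first known as an activator of the chemokine gene Ccl5 in T cells, went from 347 and 324 CPM to 155 and 151 CPM at 6h, a difference of -1.13 ± 0.14 (adjusted p = 6.01e-05). Klf3, a repressor that works with the corepressor CtBP, went from 85.9 and 90.3 CPM to 51.5 and 56.6 CPM, or -0.70 ± 0.14 (adjusted p = 0.00137). Foxo1, the main FOXO gene of B cell development and homing, went from 422 and 406 CPM to 281 and 281 CPM, or -0.56 ± 0.18 (adjusted p = 0.0249). The call on Foxo1 ended with any 1 of the 4 libraries left out, where its difference ran from -0.588 to -0.535. Klf10, induced by TGF-beta, stood at 66.1 and 68.3 CPM and then 52.8 and 52.3 CPM, with an interval of the log2 difference from -0.65 to -0.06 (adjusted p = 0.0511); it was called lower with DESeq2 size factors (0.0455) and in a fit of the compared groups alone (0.000298). Foxo3, the FOXO gene best known for activating the death gene Bcl2l11, stood at 86.5 and 89.5 CPM and then 91.8 and 84.8 CPM, and its interval ran from -0.25 to 0.26. Foxp1 stood at 686 and 684 CPM and then 627 and 640 CPM, with an interval from -0.39 to 0.17.

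By 27h in wt, 9 of the 10 genes were below 0h, where 24.6% of all tested genes had fallen and 23.0% had risen, and Foxo3 alone was not called. Klf4 stood at 2.21 and 2.88 CPM, from 26 and 36 counts, a difference from 0h of -8.66 ± 0.45. Klf6 stood at 98.6 and 92.6 CPM (-4.39 ± 0.17), and Tsc22d3 at 58.4 and 54.8 CPM (-4.59 ± 0.19). Klf2 stood at 77.6 and 64.1 CPM, a range that overlaps its 6h level. Klf10 stood at 23.0 and 24.4 CPM, or -1.50 ± 0.14 (adjusted p = 5.02e-06), and Foxp1 at 396 and 399 CPM, or -0.78 ± 0.13 (adjusted p = 0.00037). Klf3 was lower than at 0h by -0.93 ± 0.14, Klf13 by -1.04 ± 0.14 and Foxo1 by -0.62 ± 0.18 (adjusted p = 0.0146). The call on Foxo1 ended with any 1 of the 4 libraries left out, at an adjusted p of 0.0525 to 0.0873. Foxo3 stood at 103 and 98.4 CPM, with an interval of its difference from 0h of -0.07 to 0.45, and was called higher in a fit of the compared groups alone (adjusted p = 0.00977).

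From 6h to 27h 5 of the 10 genes fell in wt and 0 rose, against 18.2% and 15.9% of all tested genes. Klf6 fell by 1.58 ± 0.15 and Tsc22d3 by 1.67 ± 0.17 on the log2 scale over this interval, and Klf4 by 1.90 ± 0.46 (adjusted p = 0.00904). The call on Klf4 ended without wt 6h replicate 2 (adjusted p = 0.0613) and without wt 27h replicate 1 (adjusted p = 0.0708). Klf10, with a difference of -1.15 ± 0.14, and Foxp1, with -0.67 ± 0.13, made up the rest of the 5. Klf2 (-0.32 ± 0.18, adjusted p = 0.192), Klf3 (-0.22 ± 0.14), Foxo1 (-0.06 ± 0.18), Klf13 (0.10 ± 0.14) and Foxo3 (0.19 ± 0.12) were not called. In a fit of the compared groups alone Klf3 was called lower (0.023) and Foxo3 higher (0.0218). By the fit of all libraries Klf10 and Foxp1 were thus called at 27h against 6h and not at 6h against 0h, whereas Klf2, Klf13, Klf3 and Foxo1 were called at 6h against 0h and not between 6h and 27h. Whether the early and late differences of a gene themselves differ was not tested.

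Levels can be compared between genes only per length of exon, here CPM per kilobase of all annotated exons merged. In wt at 0h Klf2 and Klf6 stood highest, at 460 ± 15.4 and 458 ± 4.94 CPM per kilobase (SD, n = 2), then Klf4 at 339 and Tsc22d3 at 314. Foxp1 (49.8), Foxo1 (47.8) and Klf13 (44.6) lay close together below them, then Klf10 (16.1), Foxo3 (11.6) and Klf3 (7.84). At 27h Klf2 (38.4) was followed by Foxo1 (31.1) and Foxp1 (28.9), and Klf4 was the lowest of the 10 at 0.834 CPM per kilobase. Merged exons count every annotated isoform, and isoform use was not measured.

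**Figure D2:**
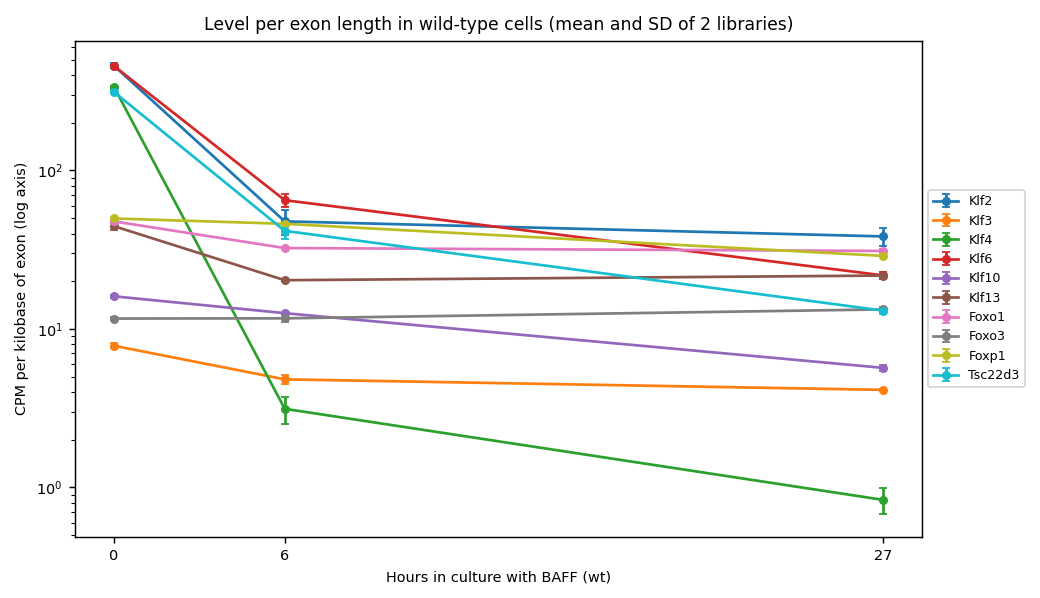
Level per exon length (CPM per kilobase of merged exons, log axis) of the 10 genes in wt cells at 0, 6 and 27 hours; points are means and bars the SD of 2 libraries. Klf4 goes from 339 to 3.13 and 0.834 CPM per kilobase, below every other gene of the set.

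In cells lacking c-Rel, 5 of the 10 genes fell over 6h and 1 rose, against 20.1% and 21.8% of all tested genes. Klf4 went from 745 and 780 CPM to 9.5 and 11.8 CPM (-6.16 ± 0.39), Klf2 from 569 and 582 CPM to 74.5 and 104 CPM (-2.69 ± 0.19), and Klf6 from 1630 and 1808 CPM to 296 and 345 CPM (-2.42 ± 0.16). Tsc22d3 went from 1107 and 1135 CPM to 193 and 206 CPM (-2.49 ± 0.17). Klf13 fell too, from 313 and 327 CPM to 216 and 211 CPM (-0.58 ± 0.14, adjusted p = 0.00579). Foxo3 rose from 86.2 and 86.3 CPM to 115 and 106 CPM, or 0.36 ± 0.12 (adjusted p = 0.0293). That call on Foxo3 ended without cko 0h replicate 1 (adjusted p = 0.119), cko 0h replicate 2 (0.121) or cko 6h replicate 1 (0.143), and with DESeq2 size factors (0.0561), no filter on low counts (0.0915) or DESeq2 (0.0717). Klf3 stood at 83.7 and 83.3 CPM and then 85.5 and 87.4 CPM, and the interval of its difference ran from -0.25 to 0.35.

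In dbko cells 6 of the 10 genes fell over 6h and 0 rose, against 20.3% and 19.3% of all tested genes. Klf4 went from 274 and 563 CPM to 6.07 and 11.5 CPM (-5.57 ± 0.38), Klf2 from 321 and 381 CPM to 79.0 and 96.9 CPM (-1.99 ± 0.18), Klf6 from 984 and 1311 CPM to 297 and 282 CPM (-1.99 ± 0.15) and Tsc22d3 from 726 and 1066 CPM to 182 and 149 CPM (-2.43 ± 0.17). These 4 calls held under every alternative. Klf10 fell from 78.6 and 61.6 CPM to 40.9 and 52.8 CPM (-0.58 ± 0.14, adjusted p = 0.00497), a call that ended without dbko replicate 1 at both times (adjusted p = 0.136) and in a fit of the compared groups alone (0.138). Klf13 fell from 233 and 336 CPM to 202 and 219 CPM (-0.43 ± 0.14, adjusted p = 0.0285), a call that ended without dbko 0h replicate 2 (adjusted p = 0.323), dbko 6h replicate 1 (0.104) or dbko replicate 2 at both times (0.164), and in a fit of the compared groups alone (0.249). Foxo1, Foxo3, Foxp1 and Klf3 overlapped between the 2 times in dbko and were not called. Without dbko 0h replicate 1 Foxo1 (adjusted p = 0.0107) and Klf3 (0.0463) were called lower, without dbko 0h replicate 2 Foxp1 was called higher (0.0399), and without dbko 6h replicate 2 Klf3 was called lower (0.00692). Klf3 was also called lower with the replicate number as a block within each genotype (0.0208).

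**Figure D3:**
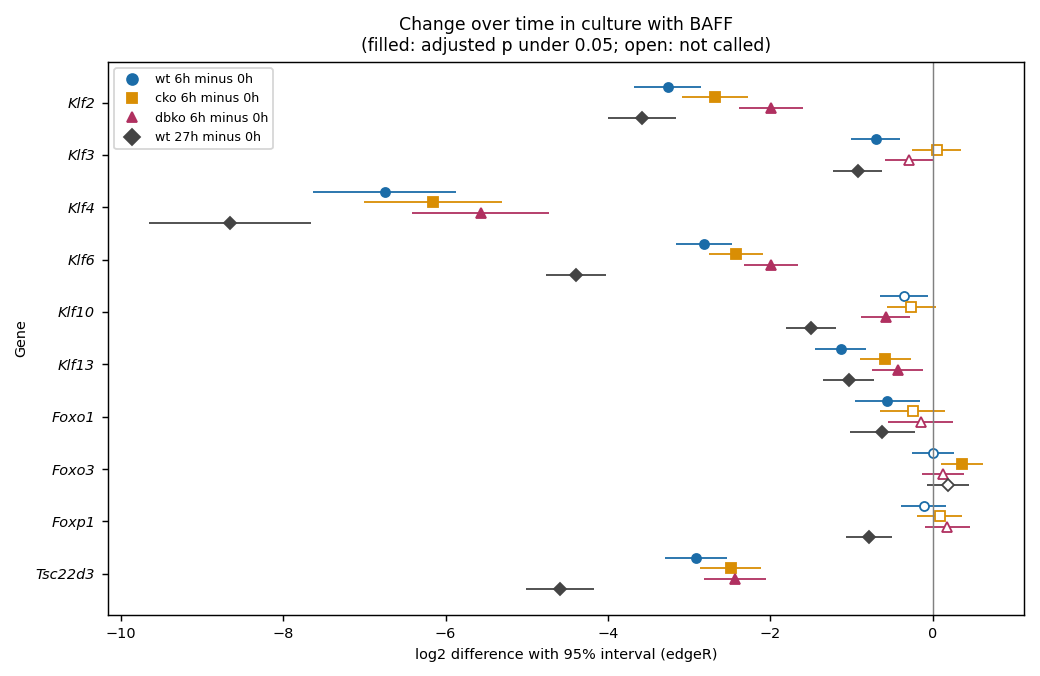
Log2 differences of the 10 genes at 6h against 0h in wt, cko and dbko and at 27h against 0h in wt, with 95% intervals from edgeR; filled symbols passed an adjusted p under 0.05. Klf2, Klf4, Klf6 and Tsc22d3 are filled left of 0 in all 4 comparisons, and Foxo3 is filled only for cko, at 0.36.

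Immediate early genes, which cells switch on within minutes of a disturbance, were high at 0h as well and fell beside Klf2, Klf4, Klf6 and Tsc22d3. The 23 tested members of that list, which shares no gene with the 10, summed to 19356 to 19692 CPM in wt at 0h, 3673 to 4469 CPM at 6h and 1315 to 1431 CPM at 27h. In wt at 6h 18 of the 23 fell and 0 rose, with Atf3 at -5.23, Jun at -4.24 and Dusp1 at -3.87. Among all tested genes 23.5% fell and 22.6% rose there. In cko the sums were 15462 to 15624 CPM at 0h and 2262 to 2751 CPM at 6h, and in dbko 8216 to 13281 CPM at 0h and 1489 to 2510 CPM at 6h. At 0h the genotypes took the same order by this sum as by Klf4, wt above cko above dbko, with dbko replicate 1 the lowest library; within wt and within cko the library with the higher sum had the lower Klf4. Heat shock genes moved in wt too, with 12 of 13 lower and 1 higher at 6h. At 6h the sums of the knockouts lay below those of wt, while the levels of Klf2, Klf4, Klf6 and Tsc22d3 overlapped between wt and each knockout. The part of the immediate early and heat shock genes in these results was not tested.

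**Figure D4:**
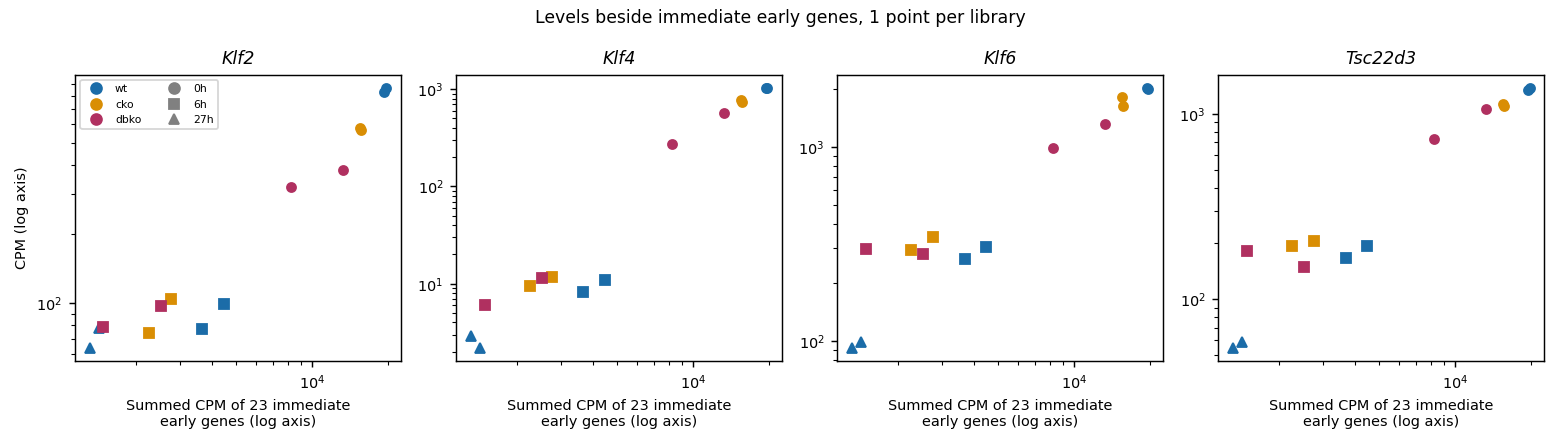
Level of Klf2, Klf4, Klf6 and Tsc22d3 (CPM, log axis) against the summed CPM of 23 immediate early genes (log axis), 1 point per library, colours for genotype and shapes for time. The 6 libraries of 0h form the upper right of each panel, and those of wt at 0h stand at 19356 and 19692 CPM on the horizontal axis.

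Genes whose levels followed those of the 10 most closely were found by Pearson's r of log2 (CPM + 1) over the 14 libraries, which share time points and genotypes, so the values describe likeness only. Klf4 was closest to Fos, a subunit of AP-1 (r = 0.997), and Dnajb9, a chaperone gene (0.996). Klf2 was closest to Klf4 (0.984) and Fos (0.983). Klf6 and Tsc22d3 were closest to each other (0.998), and Dusp1, a MAP kinase phosphatase gene, came next for Klf6 (0.993) and for Tsc22d3 (0.994). Foxo1 was closest to Pik3c3, which encodes the class III PI3-kinase (0.938), and Nr3c1, which encodes the glucocorticoid receptor (0.937). Klf13 was closest to Add3 (0.979) and Stim1 (0.979), Klf3 to Gpd1l (0.946) and Ripor2 (0.945), Klf10 to Rell1 (0.947) and Tmem222 (0.911), Foxp1 to Mtmr3 (0.959) and Ube2h (0.957), and Foxo3 to Cul1 (0.863) and Dag1 (0.854). Among the 10, Foxo3 had a negative r with Klf10 (-0.56) and with Klf2, Klf4, Klf6 and Tsc22d3 (-0.54 with each). Its r was -0.26 with Klf13, -0.03 with Klf3, -0.01 with Foxp1 and 0.07 with Foxo1.

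The next comparison asked how the knockouts differed from wt before culture. At 0h 4 of the 10 genes were lower in dbko than in wt and 0 higher, against 4.55% and 7.10% of all tested genes. Klf2 stood at 321 and 381 CPM in dbko against 829 and 869 CPM in wt, a difference of -1.28 ± 0.18 (adjusted p = 0.000535) that held under every alternative. Klf4 stood at 274 and 563 CPM against 1040 and 1026 CPM (-1.30 ± 0.30, adjusted p = 0.0196). Klf6 stood at 984 and 1311 CPM against 2025 and 1994 CPM (-0.81 ± 0.15, adjusted p = 0.00378), and Tsc22d3 at 726 and 1066 CPM against 1340 and 1385 CPM (-0.60 ± 0.17, adjusted p = 0.0339). In all 4 genes dbko replicate 1 was the lower of the dbko pair. The call on Klf4 ended without wt 0h replicate 1 (adjusted p = 0.113), wt 0h replicate 2 (0.106) or dbko 0h replicate 1 (0.0636), and that on Tsc22d3 without the same 3 libraries (0.147, 0.173 and 0.235). In a fit of the compared groups alone Klf4 (0.121), Klf6 (0.0946) and Tsc22d3 (0.185) were not called, and without dbko replicate 1 at both times Tsc22d3 was not (0.0644). Without dbko 0h replicate 2 the log2 differences were -0.49 for Foxo1, -0.42 for Foxp1 and -0.53 for Klf13, which were not called with all libraries. Beside these differences at 0h, 9 of 9 erythroid markers were higher in dbko than in wt, 7 of 23 immediate early genes were lower and 0 higher, of 11 monocyte and macrophage markers 2 were higher and 1 lower, 5 of 6 dendritic cell markers were higher and 0 lower, and B cell markers summed to 14636 to 19849 CPM in dbko against 18111 to 18513 CPM in wt. Their part in the result was not tested. In such bulk samples fewer cells of a type and less RNA per cell cannot be told apart.

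In cko at 0h 0 of the 10 genes were called against wt, where 1.50% of all tested genes were (edgeR); 2 of the 10 had an unadjusted p under 0.05. Klf2 (569 and 582 CPM, -0.56 ± 0.17, adjusted p = 0.153), Klf4 (745 and 780 CPM, -0.44 ± 0.30), Klf6 (1630 and 1808 CPM, -0.23 ± 0.15) and Tsc22d3 (1107 and 1135 CPM, -0.28 ± 0.16) each had a mean between those of wt and dbko. Klf10 (48.9 and 49.0 CPM, -0.46 ± 0.14, adjusted p = 0.145) did not, with a lower mean in cko than in wt and in dbko. Of the 10 genes 8 had no overlap of libraries between cko and wt at 0h, though 0 were called. The shares of all tested genes without overlap, or at an unadjusted p under 0.05, were not counted. These counts and the order of the means are thus a description only. In a fit of the 4 libraries of wt and cko at 0h alone 6 genes were called, Klf2, Klf4, Klf6, Tsc22d3 and Klf10 lower and Foxo1 higher. That fit called 2660 of all genes in place of 189. Without a filter on low counts Klf2 was called (adjusted p = 0.0128), and with DESeq2 the count was 0. With the replicate number as a block within each genotype Klf4 was called lower (0.0461). Foxo1 stood at 459 and 503 CPM in cko and 422 and 406 CPM in wt, with an interval of the difference from -0.18 to 0.61. Beside this comparison 8 of 13 heat shock genes were higher in cko and 0 lower, summing to 16890 to 16976 CPM against 9580 to 9797 CPM in wt. Of 11 monocyte and macrophage markers 4 were lower in cko and 0 higher, with a median log2 difference of -1.17. The markers summed to 995 to 1018 CPM against 1018 to 1035 CPM in wt, a sum that weighs abundant markers most. Among them Csf1r stood at 32.5 and 36.8 CPM in wt and 2.01 and 2.49 CPM in cko. Of 9 erythroid markers 2 were higher in cko and 0 lower. The part of these genes in the values of the 10 was not tested. T cell markers summed to 68.1 to 71.9 CPM in wt and 76.3 to 82.5 CPM in cko at 0h.

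Against cko, dbko cells at 0h had 2 of the 10 genes lower and 1 higher, with 2.39% and 6.63% of all tested genes called in these directions. Klf2 was lower by -0.72 ± 0.18 (adjusted p = 0.0244), Klf6 was lower by -0.58 ± 0.15 (adjusted p = 0.0282), and Klf10 was higher, at 78.6 and 61.6 CPM against 48.9 and 49.0 CPM (0.52 ± 0.14, adjusted p = 0.0357). All 3 calls ended without cko 0h replicate 1 (adjusted p 0.102 to 0.188), without cko 0h replicate 2 (0.152 to 0.211) and without dbko 0h replicate 1 (0.196 to 0.446), and without dbko replicate 1 at both times (0.0512 to 0.108). Without dbko 0h replicate 2 the log2 differences were -1.48 for Klf4, -0.71 for Foxo1, -0.63 for Tsc22d3 and -0.46 for Klf13, while Klf10 stayed higher. Klf4 (-0.87 ± 0.30, adjusted p = 0.102) was called with the replicate number as a block (0.0168) and as a block within each genotype (0.000126). It was also called without a filter on low counts (2.48e-08). Its difference was -0.47 without dbko replicate 1 at both times and -1.48 without dbko replicate 2 at both times. In the same comparison 11 of 13 heat shock genes were lower in dbko and 0 higher, 9 of 9 erythroid markers were higher, 7 of 11 monocyte and macrophage markers were higher and 1 lower, and 4 of 6 dendritic cell markers were higher and 0 lower; their part was not tested.

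At 6h the genes that had differed most at 0h were not called between either knockout and wt. Klf2 stood at 77.3 and 99.0 CPM in wt, 74.5 and 104 CPM in cko and 79.0 and 96.9 CPM in dbko, and the 3 ranges overlapped. The interval of the log2 difference from wt ran from -0.37 to 0.41 for cko and from -0.39 to 0.38 for dbko. For Klf6 these intervals ran from -0.15 to 0.49 and from -0.30 to 0.34, for Tsc22d3 from -0.22 to 0.51 and from -0.49 to 0.24, and for Klf4, at 6.07 to 11.8 CPM, from -0.68 to 0.99 and from -0.97 to 0.72. Without dbko replicate 2 at both times the difference of Klf4 in dbko was -0.66 from wt and -0.82 from cko. Of the other members, Klf10 had a lower mean in both knockouts than in wt at 6h, and the rest had higher ones. Klf10 stood at 39.8 and 41.5 CPM in cko and 40.9 and 52.8 CPM in dbko against 52.8 and 52.3 CPM in wt. It was not called in cko (-0.37 ± 0.14, adjusted p = 0.175) or in dbko (-0.17 ± 0.14, adjusted p = 0.401). Without dbko replicate 2 at both times its difference in dbko was -0.36. Klf3 stood at 85.5 and 87.4 CPM in cko and 63.2 and 86.2 CPM in dbko against 51.5 and 56.6 CPM in wt, with differences of 0.68 ± 0.14 (adjusted p = 0.0188) and 0.47 ± 0.14 (adjusted p = 0.0269). Klf13 stood at 202 and 219 CPM in dbko against 155 and 151 CPM in wt (0.46 ± 0.14, adjusted p = 0.0316), and in cko at 216 and 211 CPM (0.48 ± 0.14, adjusted p = 0.0882). Foxo1 stood at 409 and 401 CPM in cko and 324 and 387 CPM in dbko against 281 and 281 CPM in wt, and was not called (adjusted p = 0.142 and 0.193). With the replicate number as a block within each genotype Foxo1 was called higher in cko (0.0209) and in dbko (0.0462), and Klf13 in cko (0.0223).

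In all, 1 of 10 genes was higher in cko than in wt at 6h and 2 of 10 in dbko, with none lower. Of all tested genes 1.58% were higher and 1.96% lower in cko, and 15.2% higher and 11.5% lower in dbko. The call on Klf3 in cko ended with any 1 of the 4 libraries left out (adjusted p 0.0529 to 0.21). In dbko it ended without wt 6h replicate 1 (0.176), wt 6h replicate 2 (0.0865), dbko 6h replicate 2 (0.209) or dbko replicate 2 at both times (0.0916), and in a fit of the compared groups alone (0.136). The call on Klf13 in dbko ended with any 1 of the 4 libraries left out (0.0518 to 0.158) and in a fit of the compared groups alone (0.0518). Between dbko and cko at 6h 0 of the 10 genes were called by edgeR, with 13.4% of all tested genes called, 0 of the 10 at an unadjusted p under 0.05 and 0 by DESeq2. Without dbko 6h replicate 2 the log2 difference of Klf3 between dbko and cko was -0.45, against -0.21 with all libraries.

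**Figure D5:**
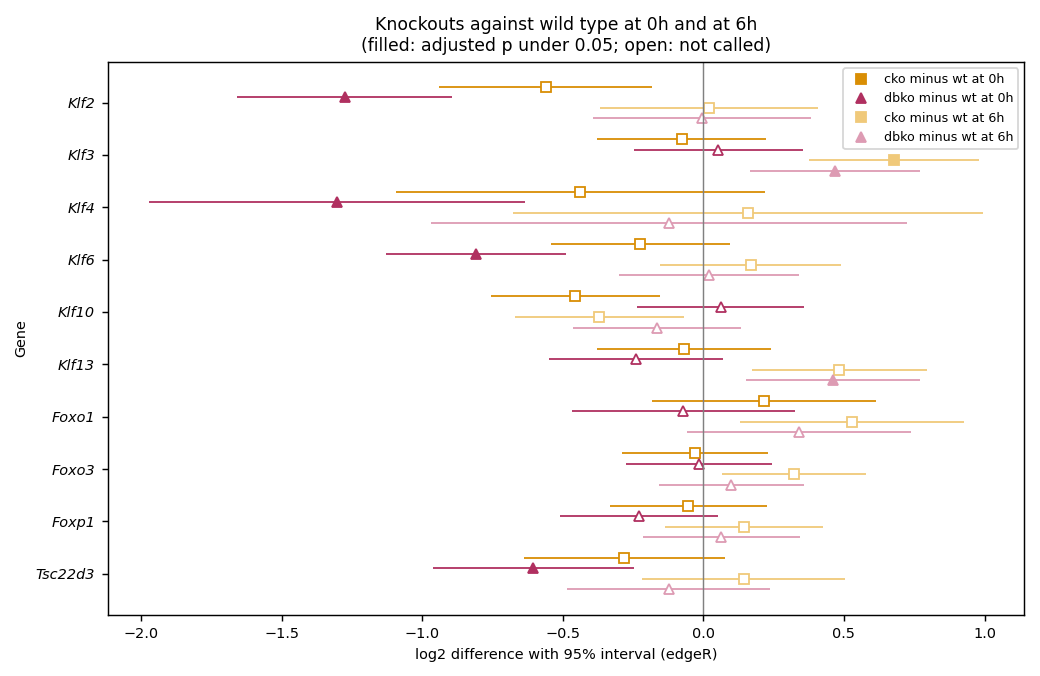
Log2 differences of the 10 genes in cko and dbko against wt at 0h (dark symbols) and at 6h (pale symbols), with 95% intervals from edgeR; filled symbols passed an adjusted p under 0.05. At 0h Klf2, Klf4, Klf6 and Tsc22d3 are filled left of 0 in dbko, and at 6h Klf3 in both knockouts and Klf13 in dbko are filled right of 0.

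The 6h response, the 6h minus 0h difference of a genotype, was then compared between genotypes by the interaction term of the model. This term equals the difference between genotypes at 6h minus that at 0h, so it is not independent of the comparisons above. Between dbko and wt the 6h response differed in 3 of the 10 genes, all in the positive direction, against 6.90% of all tested genes in that direction and 6.94% in the other. Klf2 fell by 3.27 in wt and 1.99 in dbko on the log2 scale, a difference of 1.27 ± 0.25 (adjusted p = 0.00729) that held under every alternative. Klf6 differed by 0.83 ± 0.21 (adjusted p = 0.0217) and Klf13 by 0.70 ± 0.20 (adjusted p = 0.0373). The call on Klf6 ended without any 1 of the 4 wt libraries (0.0534 to 0.104) or dbko 0h replicate 1 (0.0633), and in a fit of the compared groups alone (0.0744). The call on Klf13 ended without any 1 of the 4 wt libraries (0.0901 to 0.139), dbko 0h replicate 1 (0.0742) or dbko 6h replicate 2 (0.0565), and in a fit of the compared groups alone (0.122). The interval for Klf4, which fell by 6.75 in wt and 5.57 in dbko, ran from 0.11 to 2.25 (adjusted p = 0.136), and that for Tsc22d3 from -0.03 to 0.99. Klf4 was called with the replicate number as a block (0.0366) or as a block within each genotype (0.00221). It was also called without a filter on low counts (4.89e-05). Without dbko 0h replicate 2 the difference of responses was 1.8 for Klf4, 0.83 for Foxo1 and 0.79 for Tsc22d3. That of Klf3 was 0.62 without dbko 6h replicate 1. Klf10 went the other way, at -0.23 ± 0.19 (adjusted p = 0.476), and at -0.59 without dbko replicate 2 at both times.

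Between cko and wt the 6h response was called in 0 of the 10 genes by edgeR, where 1.70% of all tested genes were called, with 3 of the 10 at an unadjusted p under 0.05 and 1, Klf3, by DESeq2. The nearest was Klf3, at -0.70 in wt and 0.05 in cko, with a difference of 0.75 ± 0.20 (adjusted p = 0.0783; 0.0432 with DESeq2 and 0.0112 with the replicate number as a block within each genotype). Between dbko and cko 0 of the 10 genes were called by edgeR and 0 by DESeq2, with 0.934% of all tested genes called and 1 of the 10 at an unadjusted p under 0.05.

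The known targets of these factors were read from lists of genes named for this work. Of 12 tested KLF2 target and homing genes 11 fell and 0 rose in wt at 6h, with a median of -1.45. Among all tested genes 23.5% fell and 22.6% rose. Itgb7, an integrin gene of homing to the gut, went from 185 and 193 CPM to 22.3 and 26.8 CPM (-2.94 ± 0.18). S1pr1, the receptor for exit from lymphoid organs, which Klf2 is known to activate in T cells, went from 1243 and 1266 CPM to 334 and 366 CPM (-1.84 ± 0.18), and Gpr183, a receptor that positions B cells in the follicle, changed by -1.36. At 6h 7 of the 12 were higher in dbko than in wt and 3 lower, against 15.2% and 11.5% of all tested genes. S1pr4 was at 1.08, Itgb7 at 1.20 and Cd36 at 2.10, beside Gpr183 at -0.62 and Ccr7 at -0.95. In that comparison 10 of 11 monocyte and macrophage markers were higher in dbko and 0 lower, with a median log2 difference of 2.72. Their sum, which weighs abundant markers most, stood at 520 to 698 CPM against 570 to 588 CPM in wt. The part of these markers was not tested, and macrophages also express Cd36. At 0h 2 of the 12 were lower in dbko than in wt and 0 higher, against 4.55% and 7.10% of all tested genes. Among the 2 was the chemokine receptor gene Ccr7, at 1338 and 2011 CPM against 3359 and 3399 CPM.

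Of 24 tested FOXO target genes 13 fell and 5 rose in wt at 6h, with a median of -0.49, where 23.5% of all tested genes fell and 22.6% rose. Txnip (-1.68), Gadd45a (-3.16) and S1pr1 (-1.84) were among those that fell. Among those that rose were Ddit4, an inhibitor of mTOR (1.58), Bcl2l11, which encodes the death protein Bim (1.40), and the interleukin-7 receptor gene Il7r, from 0.834 and 0.387 CPM to 18.0 and 22.0 CPM. In cko at 6h 12 fell and 7 rose, with Pik3ip1, an inhibitor of PI3K, at 1.28. Both target lists hold S1pr1 and Ccr7. In the PI3K, AKT and mTOR pathway list 8 of 24 rose and 7 fell in wt at 6h, with a median of 0.12, beside the 22.6% and 23.5% of all tested genes that rose and fell. Phlpp1, a phosphatase that acts on AKT (1.91), and the PI3K catalytic subunit gene Pik3cd (0.78) rose, while the regulatory subunit gene Pik3r1 (-1.03) and the kinase gene Sgk3 (-1.28) fell. None of these transcripts measures the phosphorylation of FOXO proteins.

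Other genes of the same families were read in the same way, beside the 23.5% and 22.6% of all tested genes that fell and rose in wt at 6h. Of 7 tested further KLF genes 3 fell and 0 rose in wt at 6h, Klf9 from 61.2 and 60.0 CPM to 7.78 and 9.94 CPM, Klf11 from 89.6 and 83.2 CPM to 16.7 and 15.6 CPM, and Klf7 at -0.54. Klf1, the erythroid member, stood at 33.8 and 16.5 CPM in dbko at 0h against 0.208 and 0.774 CPM in wt, and it is also an erythroid marker here. Of 5 tested further FOXO, FOXP and TSC22 genes Tsc22d1 (-1.90) and Tsc22d2 (-0.82) fell and 0 rose.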

How the data were processed

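RNA-seq counts per Ensembl gene were used as the authors deposited them, 1 table per library; base calling used CASAVA 1.8.2, per the submitters' processing notes, and the sources used here do not give the aligner, counter, build or use of strand. Without strand, reads of Klf3 and Foxo1 cannot be told apart from those of antisense genes overlapping them, which held 71 and 6 counts over all libraries; Foxp1 overlaps genes on its own strand, of which Gm20696 held 43 counts. Rows that name no gene, among them the multiply aligned reads (38.77 to 49.85% of all counts in a table), were left out. Symbols, positions and exon lengths came from GENCODE M21 (37607 of 39179 IDs matched). edgeR 4.0.16 in R 4.3.3 (TMM, filterByExpr, robust quasi-likelihood fit of all 14 libraries) tested 12630 genes, with Benjamini-Hochberg adjustment over all of them and calls under 0.05; it was tested on simulated data. Per the labels, every replicate 1 was sequenced on lane 7 and every replicate 2 on lane 8, so the replicate number marks a shared lane; deviations from the group means correlated over 0.1 in 5 of 21 pairs of groups (range -0.245 to 0.483). Alternatives were DESeq2 1.42.0, its size factors in edgeR, no filter, the replicate number as a block over all libraries or, coded around its mean, within each genotype, fits of the compared groups alone, and libraries left out. The members and gene lists were chosen with earlier results of these data known. Shares of all tested genes without overlap of libraries, or at an unadjusted p under 0.05, were not counted. List genes were named by the smallest adjusted p, up to 3 in each direction, and a few others after their values were seen. Figures used Matplotlib 3.10.9.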

Additional observations from a re-analysis of the deposited data

Results flagged for a closer look

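The 6h response differed between dbko and wt, by the interaction term of the edgeR model, in 3 of the 10 genes. For Klf2 the log2 difference of responses was 1.27, for Klf6 0.828 and for Klf13 0.701. In each of them the fall over 6h was smaller in dbko than in wt. For Klf2 the dbko minus wt difference was -1.28 at 0h and -0.00 at 6h, and for Klf6 -0.81 and 0.02. For these genes the term thus restates the lower level in dbko at 0h. For Klf13 the difference was -0.24 at 0h and 0.46 at 6h. No cause was tested.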

How the results depend on the processing

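Of 46 calls on the 10 genes over 14 comparisons, 29 held under every alternative, and no direction of a call reversed. With 1 library left out, the number of the 10 genes called went from 4 to between 2 and 7 for dbko against wt at 0h, from 3 to between 0 and 7 for dbko against cko at 0h, from 1 to 0 for cko against wt at 6h, from 2 to between 0 and 1 for dbko against wt at 6h, from 0 to between 0 and 1 for dbko against cko at 6h, and from 3 to between 1 and 6 for the 6h response of dbko against wt. Fits of the compared groups alone called 6 genes in place of 0 for cko against wt at 0h, 1 in place of 4 for dbko against wt at 0h, 1 in place of 3 for dbko against cko at 0h, 3 in place of 1 for cko against wt at 6h, 0 in place of 2 for dbko against wt at 6h, and 2 in place of 0 (cko) and 1 in place of 3 (dbko) for the 6h response against wt. Without a filter the counts were 1 for cko against wt at 0h, 3 for cko against wt at 6h, and 1 for the 6h response in cko against wt and in dbko against cko. DESeq2 called 2 genes for cko against wt at 6h and 1 for the 6h response of cko against wt. Without dbko replicate 1 at both times the counts were 1 for dbko against cko at 0h, 2 at 6h and 5 for the 6h response of dbko against wt; without dbko replicate 2 they were 7 for dbko against wt at 0h, 8 and 4 for dbko against cko at 0h and 6h, and 7 and 3 for the 6h response of dbko against wt and against cko. The cause of these shifts was not tested.

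With the replicate number, and so the lane, as a block over all libraries, 4 genes were called in place of 3 for dbko against cko at 0h and for the 6h response of dbko against wt, Klf4 being the added gene in each. With the block within each genotype the count was 1 in place of 0 for cko against wt at 0h, 3 in place of 1 for cko against wt at 6h and 1 in place of 0 for the 6h response of cko against wt. Neither block ended a call on the 10 genes.

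Counts over all genes moved further. Over all alternatives they ran from 38 to 2660 around 189 for cko against wt at 0h, from 416 to 4717 around 1472 for dbko against wt at 0h, from 227 to 4528 around 1140 for dbko against cko at 0h, from 70 to 1030 around 447 for cko against wt at 6h, from 1075 to 5645 around 3370 for dbko against wt at 6h, from 190 to 4464 around 1697 for dbko against cko at 6h, and for the 6h response from 9 to 1292 around 215 (cko against wt), from 595 to 4054 around 1749 (dbko against wt) and from 1 to 2080 around 118 (dbko against cko). Over time they ran from 2100 to 7531 around 4309 between 27h and 6h in wt and from 1323 to 5970 around 5004 for dbko at 6h. With 2 libraries a group, a left-out library leaves 1, assumed to vary like the other groups.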

Other observations

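Other genes that hold cells at rest moved in wt as well. Of 22 further quiescence and anti-proliferative genes 10 fell and 2 rose at 6h, where 23.5% of all tested genes fell and 22.6% rose (edgeR). Their median log2 difference was -0.42, against -0.00 over all tested genes. Tob1 (-2.64) and Btg2 (-2.47), both antiproliferative factors, and Pdcd4 (-1.28), an inhibitor of translation, fell, while Slfn2 (0.87) and Mxi1 (2.01), an antagonist of MYC, rose. In dbko at 0h 5 of the 22 were lower than in wt and 0 higher, against 4.55% and 7.10% of all tested genes. Among the 5 were Zfp36l1 (-1.01), Tob1 (-0.71) and Mxd4 (-0.79). Of 10 tested glucocorticoid response genes other than Tsc22d3, 7 fell and 2 rose in wt at 6h, with Dusp1 at -3.87, Klf9 at -2.77 and Zfp36 at -1.77. Btg2, Dusp1 and Zfp36 are also in the immediate early list, and the part of that list in these values was not tested.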
